A study of Mus musculus with 6 samples.

Results

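The 6 beta-defensin genes *Defb11*, *Defb1*, *Defb9*, *Defb10*, *Defb3* and *Defb4* were followed through RNA-seq of brain microvessels from 3 WT and 3 TEKCRIF1 KO mice. They are 6 of the 43 symbols starting with Defb and of the 23183 symbols quantified in each library. *Defb11* was selected on its FPKM, which was higher in KO, so its KO and WT values are given as a description with no test, and the other members were set beside it as paralogues. *Ttr*, which encodes the thyroid hormone carrier transthyretin and is an abundant product of the choroid plexus epithelium, served as a tissue reference.

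WT mice carried TEK-cre and Crif1 +/+, and KO mice carried TEK-cre and Crif1 flox/flox, so that Cre was present in both groups. Tek directs Cre to endothelial cells, and Tek-driven Cre is also known to act in part of the blood lineage. The ages of these mice are not given in the sources used here. Microvessels were pelleted from homogenised brain through dextran and caught on a strainer, a preparation that also holds mural cells and pieces of other brain tissue.

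Beta-defensins are small secreted cationic peptides held together by disulphide bonds, made mainly by epithelia of the skin, gut, airway, kidney and epididymis. They damage microbial membranes, and some also act on the chemokine receptors CCR6 and CCR2. Their genes are typically 2 exons long, the first coding for the signal peptide, and lie in clusters that arose by duplication. Some members are made at a steady level, and others are induced through Toll-like receptors, IL-1, IL-17 and NF-kB.

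The annotation places *Defb11* (ENSMUSG00000045337.4) on the minus strand at chr8:21905376-21906412 of GRCm38, the assembly called mm10, with 2 exons and a transcript of 317 bases. *Defb9* lies on the same strand at chr8:21881713-21885421, and *Defb10* on the plus strand at chr8:21858901-21862011. *Defb2*, which was not among the 6, follows at chr8:21839926-21843482 and *Defb1* at chr8:21776599-21795185. *Defb3* at chr8:19293360-19295291 and *Defb4* at chr8:19198706-19201545 lie in another part of the chromosome. No annotated gene overlaps *Defb11*. Its nearest neighbour is the antisense gene *Gm36879*, which starts 251 bases beyond the *Defb11* start on the other strand and is not among the quantified symbols, and the next beta-defensin on that side is *Defb15*, which was listed at 0 in every library.

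**Figure D1:**
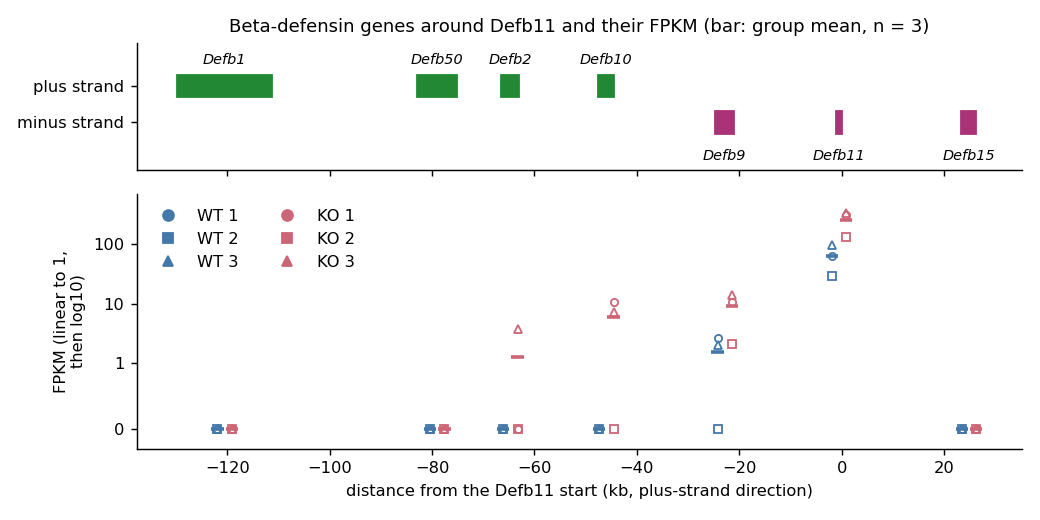
The upper panel places 7 beta-defensin genes by distance from the *Defb11* start in kb and by strand, and the lower panel gives FPKM per library on an axis that is linear to 1 and log10 above it, with bars for the group means (n = 3). *Defb11* stands above all its neighbours in every library, and *Defb1*, *Defb50* and *Defb15* are at 0.

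The coding sequences of *Defb11* and its 3 closest relatives are shown because they set how far reads can be assigned to 1 gene. They were read from the GENCODE M21 transcripts, start codon to stop codon, and capitals mark bases that differ from *Defb11* or have no partner in it after global alignment.
Defb11: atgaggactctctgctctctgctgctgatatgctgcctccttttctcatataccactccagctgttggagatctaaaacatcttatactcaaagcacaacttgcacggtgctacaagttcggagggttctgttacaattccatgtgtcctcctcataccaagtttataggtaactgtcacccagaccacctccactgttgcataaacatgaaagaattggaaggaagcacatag
Defb10: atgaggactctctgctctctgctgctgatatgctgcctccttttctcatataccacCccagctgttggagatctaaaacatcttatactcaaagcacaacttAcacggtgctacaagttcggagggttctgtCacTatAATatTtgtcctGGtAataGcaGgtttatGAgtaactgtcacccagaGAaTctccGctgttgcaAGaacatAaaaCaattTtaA
Defb9: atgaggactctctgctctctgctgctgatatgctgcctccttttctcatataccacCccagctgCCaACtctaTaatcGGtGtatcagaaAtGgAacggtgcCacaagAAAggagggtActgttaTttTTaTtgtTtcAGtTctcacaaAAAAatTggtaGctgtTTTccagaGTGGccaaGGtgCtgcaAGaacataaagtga
Defb2: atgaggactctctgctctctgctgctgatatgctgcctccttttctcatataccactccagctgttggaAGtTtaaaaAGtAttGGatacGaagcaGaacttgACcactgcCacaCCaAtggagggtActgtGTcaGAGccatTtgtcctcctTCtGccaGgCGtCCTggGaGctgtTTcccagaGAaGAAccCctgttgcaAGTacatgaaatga
The first 56 coding bases, within exon 1, were identical in *Defb11*, *Defb9* and *Defb10*, and the first 69 in *Defb11* and *Defb2*. Over the whole coding sequence, *Defb10* was 84.2% identical to *Defb11*, *Defb2* 71.2% and *Defb9* 66.5%. The identity of *Defb11* with *Defb1*, *Defb3* and *Defb4* was between 51.2% and 57.9%. Of the 218 windows of 100 bases in the *Defb11* transcript, 215 occur in no other gene's transcripts and 3 are shared with *Defb2*. Of its 288 windows of 30 bases, 199 are found in no other gene. A read of full length can thus be placed on *Defb11* nearly everywhere, whereas a trimmed or partly aligned one may not, and the assignment among *Defb11*, *Defb9*, *Defb10* and *Defb2* remains uncertain to that extent.

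The 250 bases before the RefSeq start are shown for the 3 members with the highest levels, with the longest run shared by all 3 in capitals. They were read from the GRCm38.p6 promoter table for *Defb11* (chr8:21906433-21906682, minus strand), *Defb9* (chr8:21885435-21885684, minus strand) and *Defb10* (chr8:21858651-21858900, plus strand).
Defb11: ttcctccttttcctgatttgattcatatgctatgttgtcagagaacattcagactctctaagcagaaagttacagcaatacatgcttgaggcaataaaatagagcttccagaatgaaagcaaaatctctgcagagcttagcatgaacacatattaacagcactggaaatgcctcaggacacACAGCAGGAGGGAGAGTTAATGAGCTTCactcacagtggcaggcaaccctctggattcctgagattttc
Defb9: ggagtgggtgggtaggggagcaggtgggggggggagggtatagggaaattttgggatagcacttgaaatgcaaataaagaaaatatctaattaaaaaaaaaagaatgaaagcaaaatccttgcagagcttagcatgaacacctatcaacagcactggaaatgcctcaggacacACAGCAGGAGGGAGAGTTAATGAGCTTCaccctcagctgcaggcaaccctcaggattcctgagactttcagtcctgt
Defb10: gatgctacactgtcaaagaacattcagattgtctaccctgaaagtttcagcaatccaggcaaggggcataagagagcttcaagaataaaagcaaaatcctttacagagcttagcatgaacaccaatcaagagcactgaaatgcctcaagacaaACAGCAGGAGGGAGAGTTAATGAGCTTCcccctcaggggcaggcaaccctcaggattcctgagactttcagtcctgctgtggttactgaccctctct
The shared run of 28 bases begins 69 bases before the start in *Defb11*, 77 in *Defb9* and 97 in *Defb10*. Of the 32851 promoter windows of the same length, only these 3 hold it. The windows were between 65.1% and 67.7% identical to each other. No TATAAA was found on either strand in any of the 3, whereas 12.4% of all windows hold one. The AP-1 motif TGANTCA occurs once in the *Defb11* window, 232 bases before the start, in neither of the others, and in 6.75% of all windows. The NF-kB consensus was found in none of the 3 and in 7.25% of all windows, both strands being searched. The C/EBP motif TTNNGNAA matched once in the *Defb11* window, once in that of *Defb10*, not in that of *Defb9*, and in 36.8% of all windows.

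The expression values are FPKM, fragments per kilobase of transcript, scaled to the mapped fragments of each library. The spacing of the low values put the depth of the libraries between about 6500000 and 11900000 fragments, KO 2 being the shallowest. *Gadd45gip1*, the gene for CRIF1, stood at 18.8, 15.3 and 16.5 FPKM in WT and at 10.8, 7.54 and 10.4 FPKM in KO, below WT in every KO library. The endothelial marker *Pecam1* ranged from 55.8 to 90.9 FPKM over the 6 libraries. Markers of other cells were also present, with *Pdgfrb* of pericytes at 30.8 to 45.6 FPKM, *Aqp4* of astrocytes at 23.9 to 44.1 FPKM and *Dcn* of meningeal fibroblasts at 148 to 224 FPKM. *Foxj1* of ependymal cells stood at 42.0 to 54.5 FPKM, *Mbp* of oligodendrocytes at 42.3 to 91.8, *Cx3cr1* of microglia at 10.1 to 17.2, *Snap25* of neurons at 16.7 to 69.7, *Hba-a1* of erythroid cells at 1081 to 2215 and *S100a8* of neutrophils at 0 to 9.79 FPKM. KO 2 stood apart from KO 1 and KO 3 in its choroid plexus genes, described with *Ttr* below, and the *Defb11*, *Defb9*, *Ttr* and choroid plexus results are also given without it. In all, limma on log2(FPKM + 1) called none of the 14247 genes whose mean over the 6 libraries was 1 FPKM or more at an adjusted p under 0.05 (0%), the smallest adjusted p being 0.841. At an unadjusted p under 0.05 it called 395 genes higher in KO (2.77%) and 443 lower (3.11%). At the adjusted threshold it called 6 genes without KO 2, 4 without KO 3 and 2 without WT 3. At the unadjusted threshold it called 1865 without KO 2, 451 without WT 2 and 528 without KO 1.

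*Defb11* was the one member at a substantial level in all 6 libraries. Its FPKM was 64.1, 29.4 and 97.2 in WT 1, 2 and 3, while the KO libraries 1, 2 and 3 reached 305, 131 and 332. Every KO library was above every WT library, the lowest KO value being KO 2 and the highest WT value WT 3. The means were 63.6 ± 33.9 FPKM in WT and 256 ± 109 FPKM in KO (SD, n = 3 each), a ratio of 4.03. On the log2(FPKM + 1) scale the difference was 2.04, which placed it 24th from the top of the 14247 genes. For comparison, 5.37% of all tested genes had every KO library above every WT library and 5.70% every KO library below. The difference was 2.46 without KO 2 and ranged from 1.57 to 2.46 over the 6 ways of leaving out 1 library.

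Within a library, *Defb11* ranked 1013th, 2584th and 635th of the tested genes by FPKM in WT 1, 2 and 3. It ranked 221st, 335th and 177th in KO 1, 2 and 3, so that it was among the top 2.35% of tested genes in each KO library. Within groups it varied by a factor of 3.30 in WT and 2.53 in KO. At the estimated depths and the full annotated length, its values correspond to at most 83.1 fragments in WT 2, the lowest library, and at most 1250 in KO 3, the highest.

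**Figure D2:**
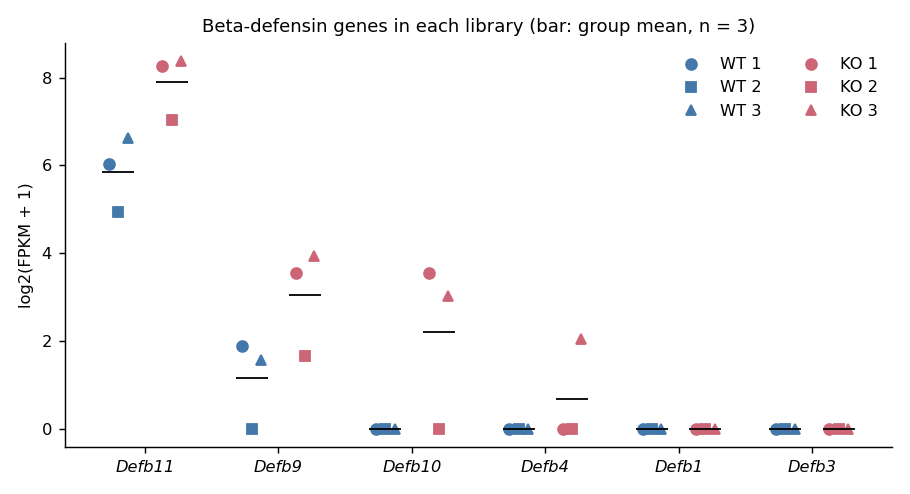
Each point is the log2(FPKM + 1) of a beta-defensin gene in a library, with bars for the group means (n = 3). *Defb11* lies between 4.93 and 6.62 in WT and between 7.05 and 8.38 in KO, *Defb9* overlaps between the groups, and the remaining members are at 0 in most or all libraries.

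*Defb9*, the gene next to *Defb11* on the same strand, was far lower. It stood at 2.66, 0 and 1.97 FPKM in WT and at 10.7, 2.13 and 14.2 FPKM in KO. Both KO 1 and KO 3 were above all WT libraries, but KO 2 was below WT 1, so the groups overlapped. The means were 1.54 ± 1.38 and 9.02 ± 6.21 FPKM (SD, n = 3 each), and the difference on the log2(FPKM + 1) scale was 1.89 ± 0.63 (standard error). It did not pass, with a limma p of 0.0133 before and 0.841 after Benjamini-Hochberg adjustment, and an exact two-sided permutation p of 0.2 where 0.1 is the smallest possible. Without KO 2, the KO library with the lowest *Defb9*, the difference was 2.59, with a limma p of 0.000862 before and 0.129 after adjustment. Without WT 2 it was 1.32 and without KO 3 1.45, with unadjusted limma p-values of 0.0521 and 0.0638. With a pseudocount of 0.1 it was 3.08, since WT 2 was at 0. The levels of *Defb9* were 4.14%, 0% and 2.03% of those of *Defb11* in WT and 3.52%, 1.62% and 4.27% in KO, with overlapping groups.

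*Defb10*, the member most similar to *Defb11* in sequence, was listed at 0 in all 3 WT libraries and in KO 2, and stood at 10.7 FPKM in KO 1 and 7.13 FPKM in KO 3. It passed the filter on low values only through those 2 libraries, and it is therefore described without a test. Where it was above 0, it was 3.52% and 2.15% of *Defb11*. *Defb4*, a beta-defensin known from the epithelium of tongue and airway, was at 0 in 5 libraries and at 3.13 FPKM in KO 3. *Defb1*, which is known for steady expression in kidney and other epithelia, and *Defb3*, which is known to be induced in infected airway, were listed at 0 in every library. In all, 3 of the 6 members passed the filter.

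Among the 37 other beta-defensin symbols, 30 were at 0 in every library. The remaining 7, *Defb2*, *Defb20*, *Defb23*, *Defb26*, *Defb30*, *Defb34* and *Defb35*, were each above 0 in 1 library only. *Defb2*, the neighbour of *Defb10*, stood at 3.74 FPKM in KO 3 and *Defb35* at 4.21 FPKM in the same library, while the other 5 appeared in single WT libraries at 0.167 to 2.20 FPKM. All 18 alpha-defensin symbols (Defa) were at 0 throughout. Thus 3 of the 43 beta-defensins were above 0 in more than 1 library, and no other quantified gene lies between the first and last of the 3 on the chromosome.

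*Ttr* overlapped between the groups. Its FPKM was 3093, 2722 and 2628 in WT and 8262, 2771 and 9787 in KO. The libraries KO 1 and KO 3 were far above WT, whereas KO 2 lay within the WT range. The means were 2815 ± 245 and 6940 ± 3690 FPKM (SD, n = 3 each), and the log2(FPKM + 1) difference of 1.11 ± 0.52 (standard error) did not pass, with a limma adjusted p of 0.841 and an exact two-sided permutation p of 0.2. Without KO 2 the difference was 1.68, with a limma adjusted p of 0.0354. KO 2 was singled out by its choroid plexus values, *Ttr* included, so that p-value does not serve as a test.

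*Defb11* amounted to 2.07%, 1.08% and 3.70% of *Ttr* in WT and 3.69%, 4.74% and 3.39% in KO. Relative to *Ttr* the groups overlapped, WT 3 being just above KO 1 and above KO 3. The means were 2.28 ± 1.32% and 3.94 ± 0.705% (SD, n = 3 each). Without KO 2, both remaining KO values were below WT 3 and their mean was 3.54%. The ratio was highest in KO 2, the library where *Ttr* was at the WT level and *Defb11* was still above every WT library.

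**Figure D3:**
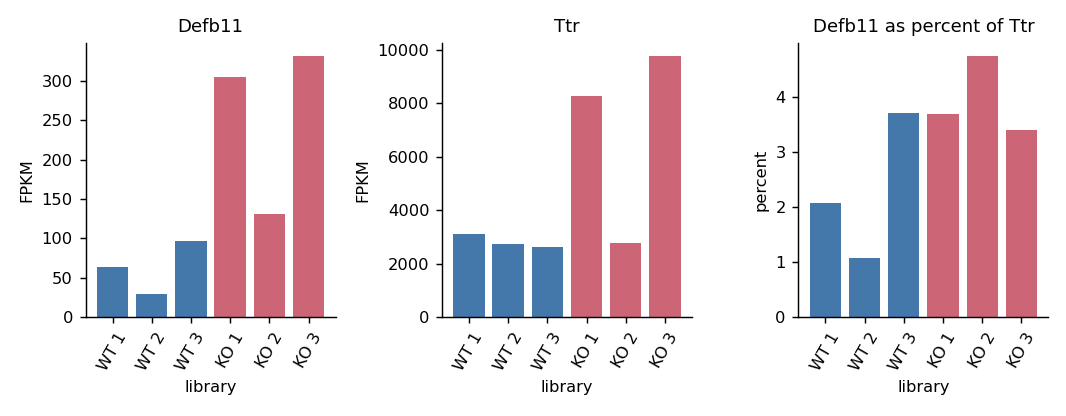
Bars give the FPKM of *Defb11*, the FPKM of *Ttr* and *Defb11* as a percent of *Ttr* in each of the 6 libraries. KO 2 is at the WT level for *Ttr*, at 2771 FPKM, but above all WT libraries for *Defb11*, at 131 FPKM.

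The other choroid plexus epithelium genes were mostly high in the same KO libraries as *Ttr*. Of 23 listed, 22 were quantified and all passed the filter, among them *Folr1*, the folate receptor, *Kl*, the FGF23 co-receptor klotho, *Otx2*, a transcription factor of the tissue, and *Kcne2*, a potassium channel subunit. Without *Ttr*, the summed level of the other 21 was 1060 to 1383 FPKM in WT, 2487 FPKM in KO 1, 1103 FPKM in KO 2 and 3348 FPKM in KO 3, and none was at 0. The counts and medians that follow are over all 22, *Ttr* included. KO 1 was above the highest WT library for 20 of the 22 genes, KO 3 for 22 and KO 2 for 2, against 31.1%, 29.2% and 28.7% of all tested genes. The median difference between KO and WT was 0.91 on the log2(FPKM + 1) scale, against -0.01 over all tested genes, and it was 1.43 without KO 2 and 0.395 without KO 3. At an unadjusted p under 0.05, 5 of the 22 (*Enpp2*, *Kcne2*, *Otx2*, *Slc4a5* and *Kl*) were higher in KO and none was lower, against 2.77% and 3.11% of all tested genes, and none passed after adjustment. The count of higher genes was 19 of 22 without KO 2, against 1034 of 14154 tested genes. KO 2 had been singled out by the values of this list, which favours that count. The count was 3 without WT 2, against 249 of 14273 tested genes, and 3 without KO 1, against 218 of 14241. Without KO 3 it was 1, against 505 of 14296.

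Differences in the list ran from -0.16 for *Slc13a4*, a sulfate transporter, to 1.16 for *Kcne2*. *Otx2* stood at 21.3, 23.2 and 24.2 FPKM in WT and at 66.9, 23.3 and 87.5 FPKM in KO. *Kcne2* stood at 31.7, 37.7 and 37.5 FPKM in WT and at 94.8, 38.2 and 142 FPKM in KO. Both were high in KO 1 and KO 3, while KO 2 was within the WT range for *Otx2* and just above it for *Kcne2*. The difference of *Defb11* was larger than that of any gene of the list in each KO library, at 2.40, 1.19 and 2.52 above the WT mean, where the list medians were 0.99, -0.18 and 1.69. That order was favoured by the selection of *Defb11* on its KO values. The part of choroid plexus tissue in the level of *Defb11* was not tested. In bulk RNA, more cells of a type and more RNA per cell cannot be told apart.

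**Figure D4:**
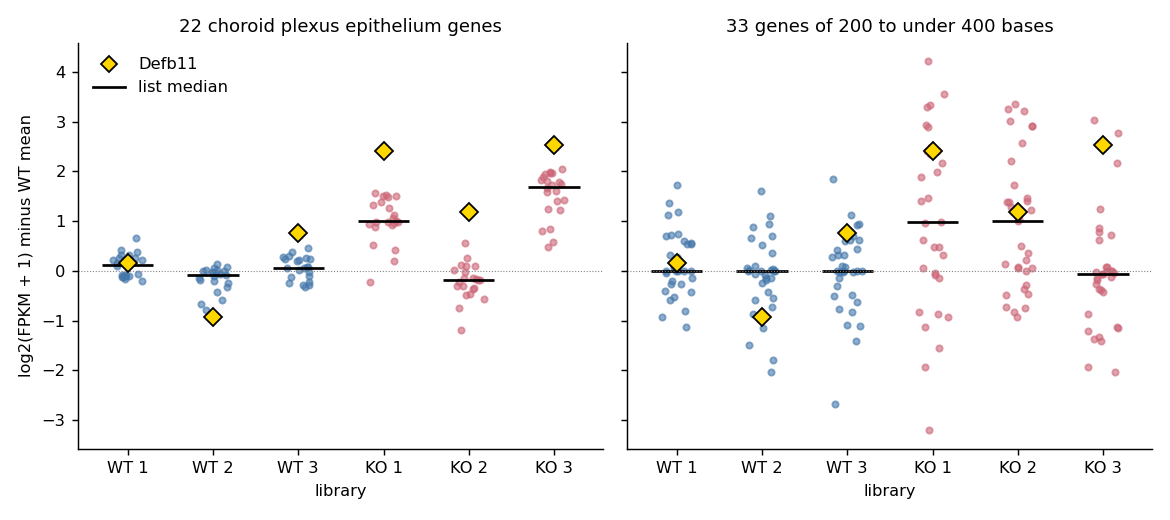
Points give log2(FPKM + 1) minus the WT mean of each gene in each library, for 22 choroid plexus epithelium genes (left) and for 33 genes with transcripts of 200 to under 400 bases (right), with list medians as bars and *Defb11* as a diamond. The choroid list is high in KO 1 and KO 3, the short genes in KO 1 and KO 2, and *Defb11* in all 3 KO libraries.

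The transcript of *Defb11* is shorter than those of nearly all tested genes, 39 of which are at most as long, itself included. The 33 other tested genes with transcripts from 200 to under 400 bases had median differences from the WT mean of 0.99 in KO 1, 1.01 in KO 2 and -0.06 in KO 3, on the log2(FPKM + 1) scale. Their interquartile range was wide, from 0 to 1.73 in KO 2. They include 8 histone genes, 7 small non-coding RNAs, *Defb9* and *Defb10*. Of the 33, 7 had a WT mean under 1 FPKM and passed the filter only through KO, *Defb10* among them. Without those 7 the medians over 26 genes were 0.55 in KO 1, 0.43 in KO 2 and -0.23 in KO 3. Of these 26, 10 were at least as far above the WT mean as *Defb11* in KO 2, 6 in KO 1, and in KO 3 1, which was *Defb9*. In KO 1 most were small non-coding RNAs, and in KO 2 most were those and histone genes. *Defb11*, which set the limit, was selected on its KO values. The share of all tested genes past that limit in each library was not counted. Removing a loess trend on transcript length from each library lowered the *Defb11* difference from 2.04 to 1.45 and that of *Defb9* from 1.89 to 1.29, with an unadjusted limma p of 0.098. Removing one on GC content gave 1.92 for *Defb11*. The part of transcript length in these differences was not tested.

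**Figure D5:**
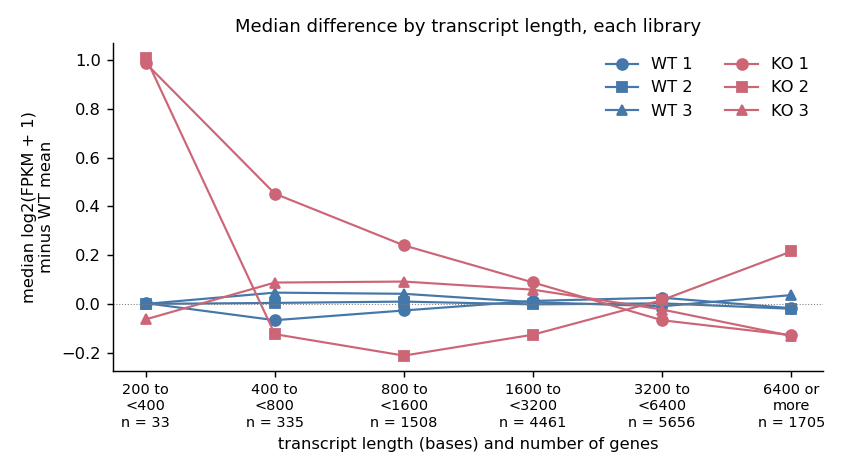
Lines join the median log2(FPKM + 1) minus the WT mean of the tested genes in 6 classes of transcript length, for each library. In the shortest class KO 1 and KO 2 stand near 1 while KO 3 and the WT libraries stand near 0, and 7 of the 33 genes in that class have a WT mean under 1 FPKM.

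None of the genes of other antimicrobial proteins passed at an adjusted p under 0.05. Of 21 listed, 11 passed the filter, and 4 of these had a higher and 7 a lower mean in KO. At an unadjusted p under 0.05 none was higher in KO and 1 was lower, against 2.77% and 3.11% of all tested genes, and none passed after adjustment. The median difference was -0.08, against -0.01 over all tested genes, -0.41 without KO 1, and 0.05 with a pseudocount of 0.1 in place of 1. The 1 lower gene was *Ngp*, a neutrophil granule protein, at 2.02, 4.23 and 2.18 FPKM in WT and 1.10, 0.741 and 0.572 FPKM in KO. Its KO mean was 0.804 FPKM, so it passed the filter only through WT, and the call is not evidence of a lower level. *S100a9*, a subunit of the neutrophil protein calprotectin, had the lowest difference, -1.08, with KO 1 above all WT libraries and the other 2 below. *Wfdc2*, a protease inhibitor of epithelia that is also in the choroid list, had the highest at 0.58, with 44.3, 6.97 and 54.6 FPKM in KO. *Pglyrp1*, a peptidoglycan recognition protein, and *Lyz2*, lysozyme of myeloid cells, had overlapping groups. *Camp*, the cathelicidin precursor, did not exceed 0.525 FPKM in any library.

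Receptors of beta-defensins and the genes of pathways known to induce them were mostly low, and none passed at an adjusted p under 0.05. The receptor *Ccr6* was at 0 in every library, as were the cytokines *Il1b* and *Il17a*, and *Ccr2* lay between 0.238 and 1.73 FPKM. Of 28 listed, 17 passed the filter, and 4 of these had a higher and 13 a lower mean in KO. At an unadjusted p under 0.05, 1 was higher in KO and 1 lower, against 2.77% and 3.11% of all tested genes, and none passed after adjustment. The median difference was -0.18, against -0.01 over all tested genes, and it ran from -0.05 without WT 1 to -0.36 without WT 3. *Nfkbia*, the inhibitor of NF-kB that is itself an NF-kB target, stood at 32.5, 25.5 and 23.4 FPKM in WT and at 41.6, 30.2 and 47.1 FPKM in KO, KO 2 being below WT 1. *Nfkb2*, a subunit of NF-kB, stood at 8.05, 6.70 and 5.77 FPKM in WT and at 4.33, 3.06 and 4.96 FPKM in KO, where every library was lower. *Tlr4*, the receptor for lipopolysaccharide, was below every WT library in each KO library, with a difference of -0.76 and a limma adjusted p of 0.841. *Myd88*, the adaptor of most Toll-like receptors, differed by 0.02.

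The genes whose pattern over the 6 libraries was most like that of *Defb11*, by Pearson correlation of log2(FPKM + 1), were *Baiap2l2* (r = 0.990), *Mum1l1* (0.982), *Plk5* (0.982), *Casp4* (0.981) and *Srp9* (0.979). In all, 170 tested genes reached 0.9 over these 6 libraries, which share depth and group differences, so the correlations are a description only. *Plk5*, a polo-like kinase family member, stood at 2.19, 1.47 and 3.48 FPKM in WT and at 7.996, 4.26 and 10.99 FPKM in KO, with the same order of libraries as *Defb11*. By deviations from the group means the most similar were *Csnk1a1*, *Ubl3*, *Nxph4*, *Dtd1* and *Pdia5*, at 0.994 to 0.999, and 265 genes reached 0.9. The median correlation of the 22 choroid plexus genes with *Defb11* was 0.805, and the range was 0.0297 for *Slc13a4* to 0.912 for *Kl*.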

How the data were processed

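Directional libraries of brain microvessel RNA, 1 for each of 3 WT and 3 KO mice, were sequenced as paired 100-base reads. Per the labels and the study's methods, the authors trimmed the reads, aligned them to mm10 with TopHat and deposited FPKM values per gene symbol; the FPKM tool, its annotation and any correction for fragment length are not given in the sources used here. Such a correction raises the FPKM of transcripts near the fragment length, so the FPKM of *Defb11* and the other defensins may not compare with those of longer genes.

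Groups came from the sample titles. Differences were fitted with limma 3.58.1 (R 4.3.3) on log2(FPKM + 1), with a trended prior variance, over genes averaging 1 FPKM or more, and p-values were adjusted by Benjamini-Hochberg over all 14247. Single values were also tested by exact two-sided permutation of the 6 libraries. The fit was also run on simulated data, with an outcome that is not reported here. Alternatives in filter, pseudocount, scaling, prior variance, replicate block, length and GC trend and libraries left out were run. Depth was estimated from the spacing of low values of 1685 genes with 1 transcript. Locations and transcripts are from GENCODE M21, promoters from RefSeq GRCm38.p6 (promoters matched for *Defb11*, *Defb9*, *Defb10* and *Defb3*). Alignments used Biopython 1.88.

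The members and lists were chosen with earlier results of these data known. Named were the members, other defensins above 0, *Gadd45gip1*, *Ttr*, genes among the lowest and highest 5 differences of each list, the first marker of each cell type, the 5 genes most like *Defb11* by each measure, and its neighbours. *Folr1*, *Kl*, *Camp*, *Ccr6*, *Ccr2*, *Il1b*, *Il17a*, *Defb50* and *Defb15* were named outside that rule, after their values were seen.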

Additional observations from a re-analysis of the deposited data

How the results depend on the processing

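The difference of *Defb11* moved by less than the spread between replicates under every alternative listed here, from 1.45 with a length trend removed to 2.46 without KO 2, with no filter, a mean of at least 5 FPKM, a pseudocount of 0.1, a trimmed-mean factor, quantile normalization, a constant prior variance, a GC trend removed and each library left out. The length and GC alternatives were chosen after seeing the data. The *Ttr* difference reached an unadjusted limma p under 0.05 with a mean of at least 5 FPKM or a constant prior variance (both 1.11) and with the length trend removed (1.08); it was 0.63 under quantile normalization and 1.11 with no filter, neither of which reached that threshold, and leaving out 1 library gave 0.77 to 1.68. For the choroid plexus list, the median ran from 0.395 to 1.43 without 1 library and the count of 5 genes became 10 under quantile normalization, 10 with the length trend removed, 8 with the GC trend removed and 1 to 19 without 1 library. The antimicrobial count of 1 became 0 at a mean of at least 5 FPKM and 0 (WT 2) to 2 (WT 1, KO 1 or KO 2) without 1 library, where the median ran from -0.41 to -0.0095, and this median was 0.05 with a pseudocount of 0.1, above 0, -0.28 at a mean of at least 5 FPKM and -0.29 with the length trend removed. The inducer and receptor count of 2 became 1 at a mean of at least 5 FPKM, 0 without WT 2 or KO 1, 1 without WT 1, WT 3 or KO 3 and 2 without KO 2, a range of 0 to 2 without 1 library, and its median ran from -0.36 to -0.0489 without 1 library, with -0.28 at a mean of at least 5 FPKM, -0.30 with a pseudocount of 0.1 and -0.07 with the GC trend removed. The count over all genes, 838, ran from 451 to 1865 without 1 library. The causes of these changes were not tested.

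Same-numbered WT and KO libraries correlated at 0.0375, 0.0267 and 0.00159 in their deviations from the group means. The other pairs of a WT and a KO library ran from -0.0733 to 0.0462. With 3 libraries per group these values cannot decide whether the numbers pair the mice. With the replicate number as a block, 871 genes passed at an unadjusted p under 0.05, 13 of them in the choroid plexus list and 1 in the inducer and receptor list. In that fit *Defb9* had a limma p of 0.000137 before and 0.389 after adjustment, and *Ttr* an unadjusted limma p of 0.109. Not every library correlated best with its own number. Group sizes of 3 and the depth of KO 2 limit what could be detected among the low defensins.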

Other observations

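The medians of the marker lists of other cells were below 0 in 9 of 10 lists. Of the 60 tested markers, 13 had a higher and 47 a lower mean in KO, against 7007 and 7240 of all tested genes, and the ependymal list was even, with 4 of 8 higher. At an unadjusted limma p under 0.05, none of the tested markers of ependymal (8), endothelial (10), pericyte and smooth muscle (9), astrocyte (6), oligodendrocyte (5), microglia and macrophage (6), neuron (5), meningeal fibroblast (5), erythroid (3) or neutrophil (3) cells was higher in KO. Of these, 2 astrocyte and 2 oligodendrocyte markers were lower, 1 was lower in each of the ependymal, endothelial, pericyte and smooth muscle, neuron, meningeal fibroblast, erythroid and neutrophil lists, and none in microglia and macrophages. The erythroid call was *Hbb-bs*, at 0, 126 and 10.6 FPKM in WT and 0 in every KO library, with an exact two-sided permutation p of 0.4. The neutrophil call was *Ngp*. Both genes passed the filter only through WT, so neither call is evidence of a lower level. Over all tested genes 2.77% were called higher and 3.11% lower, whereas the markers had 0 of 60 higher and 11 of 60 (18.3%) lower. The 11 include *Hbb-bs* and *Ngp*. None passed after adjustment over all genes.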
